A study of Mus musculus with 6 samples.

Results

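The genes described here are the 10 of a named list of dopamine receptors and markers of mature striatal neurons. The list holds the dopamine receptor genes Drd1, Drd2, Drd3, Drd4 and Drd5, and Ppp1r1b, Adora2a, Penk, Pdyn and Tac1. Not every dopamine receptor gene in it is a marker of striatal neurons. These are 10 of 21911 protein-coding genes in the mouse annotation. A gene was called marked in a condition when an H3K4me3 peak of that condition lay within 1 kb of any annotated transcript start of the gene. Of 227418 peaks deposited over all conditions, 12 marked a gene of the list.

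The peaks came from H3K4me3 ChIP-Seq of STHdh cells, conditionally immortalized striatal progenitor cells of a C57BL/6 mouse background, with 1 peak list for each condition. The wild type line (STHdhQ7 in the paper, STHdh7 in the sample label), kept in serum-free medium with vehicle, is called Q7SST. Q111SST is the mutant line (STHdhQ111), a homozygous knock-in of an expanded glutamine repeat in huntingtin, under the same treatment. The other 4 lists are from the mutant line in serum-free medium with 10 uM of cyproheptadine, loxapine, diacylglycerol kinase inhibitor II (DKI) or meclizine. All 6 conditions lasted 24 hours, and every group shared the serum starvation. Each genotype was represented by 1 cell line, so the effect of the huntingtin repeat and other differences between the lines cannot be told apart. The cells were treated in triplicate by design, but how replicates entered each list is not given. There were thus no replicate lists, and differences between lists are described and not tested.

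Trimethylation of lysine 4 on histone H3 collects at promoters that are active or held ready, and most promoters rich in the dinucleotide CpG carry it. Most neurons of the striatum are projection neurons, which fall into a pair of classes. Neurons of the direct pathway carry the receptor encoded by Drd1 and release the peptides cut from the Pdyn and Tac1 precursors. Neurons of the indirect pathway carry the receptors encoded by Drd2 and Adora2a and release enkephalin, which is cut from the Penk precursor. Ppp1r1b encodes a phosphatase inhibitor that both classes use to pass on dopamine signals. Loxapine, an antipsychotic, blocks dopamine receptors, and the other compounds here include the antihistamines cyproheptadine and meclizine. The study profiled the mark in mutant cells with the compounds, and the paper gives as its aim finding the regulators behind changes in transcription. It reports few peaks that differed between vehicle and compound-treated mutant cells. The genes here are dopamine receptors and markers of the mature neurons that such progenitors can give rise to.

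The wild type line held the mark at 5 of the 10 genes, namely Penk, Ppp1r1b, Tac1, Adora2a and Drd4. Across all protein-coding genes, 59.9% were marked in Q7SST. The mutant line with vehicle held it at 2 of 10, Penk and Ppp1r1b, against 58.4% of all genes. With cyproheptadine only Penk was marked (1 of 10, against 55.4% of all genes), and with DKI also only Penk (1 of 10, against 55.8%). With loxapine only Ppp1r1b was marked (1 of 10, against 58.1%). With meclizine Penk and Ppp1r1b were marked (2 of 10, against 58.6%). The genes of the list were thus marked in 10% to 20% of cases in the 5 mutant lists and in 50% in Q7SST. These counts depended on the settings. With peak scores of at least 47, the median over all lists, they fell to 2 of 10 in Q7SST and 0 in each mutant list. Over all genes, 53.6% in Q7SST and 46.6% to 53.4% in the mutant lists passed that limit.

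No gene of the list was marked in all 6 lists, which held for 53.5% of all protein-coding genes. Drd1, Drd2, Drd3, Drd5 and Pdyn were marked in no list (5 of 10), against 37% of all genes. The remaining 5 genes were marked in at least 1 list, against 63% of all genes, and all 5 in 1 to 5 lists, a pattern that 9.52% of all genes showed. Penk was marked in 5 lists, Ppp1r1b in 4, and Tac1, Adora2a and Drd4 in Q7SST alone.

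**Figure D1:**
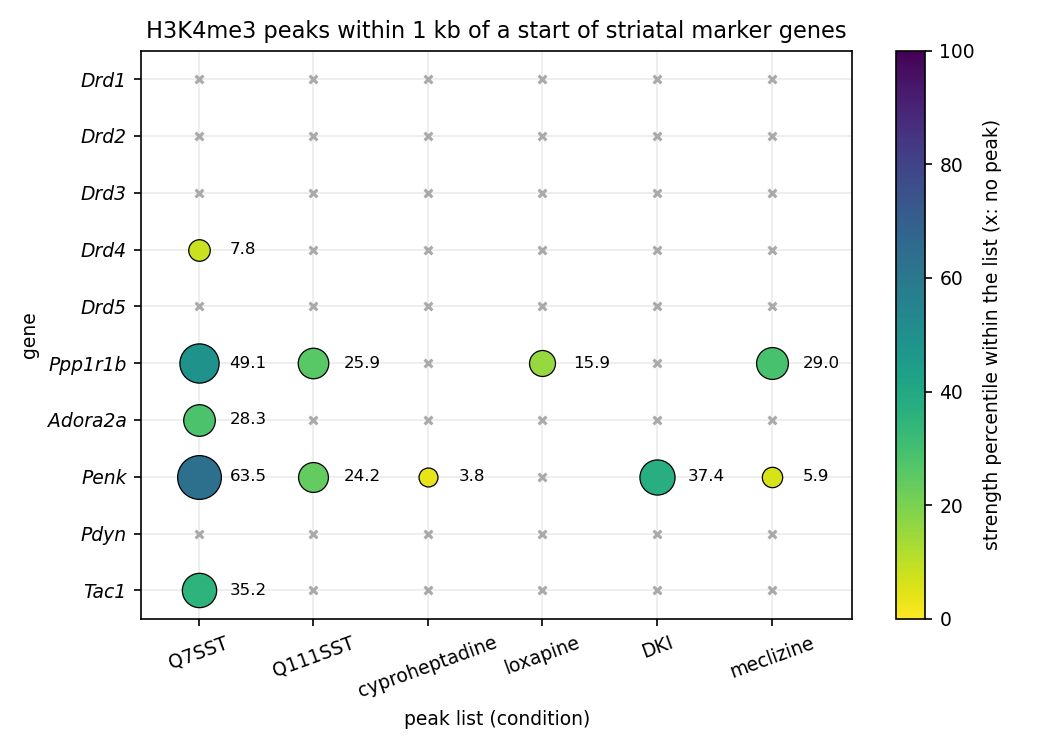
Peaks at the 10 genes (rows) in the 6 peak lists (columns). A circle is a peak within 1 kb of a start, its size and color give the percentile of its score among all peaks of that list, and a cross is a gene with no such peak. Q7SST holds circles at 5 genes, and the 5 mutant lists hold them at Penk or Ppp1r1b only.

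To show the sequence next to these marks, the 250 bases before the first start of a coding transcript are printed below for 4 of the 5 marked genes, read 5′ to 3′ on the strand of the gene from GRCm38. The promoter of Pdyn, which held no peak in any list, is printed for contrast. Capitals mark each CpG. The peaks also reached past the start into the gene, and at Ppp1r1b they covered at most 128 of the printed bases and, with loxapine and meclizine, none.
Ppp1r1b: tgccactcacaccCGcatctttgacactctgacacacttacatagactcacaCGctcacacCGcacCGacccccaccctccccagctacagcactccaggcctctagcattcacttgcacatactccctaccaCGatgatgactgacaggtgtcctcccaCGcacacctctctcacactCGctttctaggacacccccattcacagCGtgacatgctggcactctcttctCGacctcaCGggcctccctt
Tac1: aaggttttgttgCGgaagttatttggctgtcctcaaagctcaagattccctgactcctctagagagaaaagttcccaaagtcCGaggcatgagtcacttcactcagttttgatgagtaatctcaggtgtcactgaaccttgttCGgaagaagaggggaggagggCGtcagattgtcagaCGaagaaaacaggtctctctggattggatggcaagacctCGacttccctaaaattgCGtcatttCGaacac
Adora2a: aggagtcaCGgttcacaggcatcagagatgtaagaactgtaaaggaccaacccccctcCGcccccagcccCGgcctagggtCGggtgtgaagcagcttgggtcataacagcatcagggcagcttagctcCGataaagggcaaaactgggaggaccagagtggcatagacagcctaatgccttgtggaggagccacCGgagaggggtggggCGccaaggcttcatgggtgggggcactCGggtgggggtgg
Drd4: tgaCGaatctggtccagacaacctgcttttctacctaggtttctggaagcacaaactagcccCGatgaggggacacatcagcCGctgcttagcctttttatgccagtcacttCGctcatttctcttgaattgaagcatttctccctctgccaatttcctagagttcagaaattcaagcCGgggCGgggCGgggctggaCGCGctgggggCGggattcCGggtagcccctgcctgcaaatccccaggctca
Pdyn: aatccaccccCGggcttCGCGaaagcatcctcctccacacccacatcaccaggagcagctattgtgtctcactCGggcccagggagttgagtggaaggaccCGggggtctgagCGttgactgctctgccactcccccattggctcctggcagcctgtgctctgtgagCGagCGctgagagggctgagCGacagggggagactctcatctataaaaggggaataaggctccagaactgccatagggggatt
The stretches lie at chr11:98348154-98348403 on the plus strand for Ppp1r1b, chr6:7554629-7554878 on the plus strand for Tac1, chr10:75316627-75316876 on the plus strand for Adora2a and chr7:141291756-141292005 on the plus strand for Drd4. The Pdyn stretch lies at chr2:129699834-129700083 on the minus strand. Drd4 has 11 CpG in this stretch, Ppp1r1b 10 and Pdyn 9, while Adora2a and Tac1 have 8 each.

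Penk, which encodes a neuropeptide precursor, had the strongest mark of the list in Q7SST. The Ppp1r1b peak had the higher score in Q111SST (24 against 23) and with meclizine (32 against 17). Scores are whole numbers from the peak caller and were ranked within each list, so that a percentile of 50 means a peak stronger than about as many peaks of that list as it is weaker than. The Penk peak had a score of 71 in Q7SST and 23 in Q111SST, while among the compounds DKI had 34, meclizine 17, cyproheptadine 11, and loxapine no peak. These scores stood at percentile 63.5 in Q7SST and percentile 24.2 in Q111SST, and at 37.4 for DKI, 5.91 for meclizine and 3.80 for cyproheptadine. The Q7SST peak thus had the highest score and percentile. The lists differ in length and their depth is unknown, and among the strongest 30758 peaks of each list Penk stood at percentile 54.5 in Q7SST, 37.4 with DKI and 0.751 in Q111SST, with no peak left for the other compounds.

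The Penk peaks were also narrower in the mutant lists. In Q7SST the peak ran over 930 bp (chromosome 4, 4138427 to 4139356) and covered both annotated starts, part of exon 1 with its untranslated sequence, part of the first intron and 537 bp upstream. In Q111SST it ran over 678 bp (4138584 to 4139261) and covered the first start only. With cyproheptadine it was 367 bp wide (4138642 to 4139008) and with meclizine 299 bp (4138574 to 4138872). The DKI peak was 193 bp wide (4138823 to 4139015) and lay upstream of the gene, ending 4 bp before the first start. With loxapine the nearest peak was 40389 bp away. The start of a noncoding gene, A830012C17Rik, lies within 1 kb of all 5 Penk peaks, so the mark cannot be assigned to Penk alone.

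Tac1, which encodes the precursor of substance P, was marked in Q7SST alone. Its peak had a score of 36 (percentile 35.2), was 558 bp wide (chromosome 6, 7554616 to 7555173) and covered 3 of the 5 annotated starts, with 263 bp upstream, 283 bp in exons and 12 bp in an intron. In the 5 mutant lists the nearest peak lay 15606 bp to 60417 bp from a start. Pdyn, which encodes the dynorphin precursor, had no peak near a start in any list, and its nearest peak lay between 64607 bp and 64743 bp away. Of the 3 peptide precursors, the wild type line therefore marked 2, Q111SST 1, and each compound list at most 1.

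Ppp1r1b was the other gene marked in the mutant line. Its peak had a score of 49 in Q7SST, 24 in Q111SST, 19 with loxapine and 32 with meclizine, and there was no peak near its starts with cyproheptadine or DKI. The percentiles were 49.1, 25.9, 15.9 and 29.0 in the same order. Q7SST again had the highest values. In Q7SST the peak ran from 68 bp upstream to 433 bp downstream of the first start (chromosome 11, 98348336 to 98348837), in exon 1 and its untranslated sequence. In Q111SST it ran from 128 bp upstream to the same end (98348276 to 98348837). The loxapine peak (98348445 to 98348829) began 41 bp after the start and the meclizine peak (98348415 to 98348617) 11 bp after it, so neither covered the start itself. No start of another gene lay within 1 kb of these peaks.

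A stronger peak lay at the other end of Ppp1r1b, at the start of Stard3, in all 6 lists, with scores from 88 with cyproheptadine to 160 with meclizine. It lay between 3071 bp and 3249 bp from the nearest internal Ppp1r1b start. With a limit of 5 kb in place of 1 kb this peak would have marked Ppp1r1b in every list. Stard3 is named here because that count turns on it, and it was chosen after its values were seen.

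The receptor genes were marked least. Adora2a, which encodes an adenosine receptor of indirect pathway neurons, was marked in Q7SST with a score of 31 (percentile 28.3). This was the widest of the 12 peaks within 1 kb of a start, at 1237 bp (chromosome 10, 75316593 to 75317829), and it covered 2 of 4 starts, with 284 bp upstream, 271 bp in exons and 682 bp in an intron. In the 5 mutant lists the nearest peak was 16459 bp to 16744 bp away.

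Drd4 was the only dopamine receptor gene with a mark. It encodes a receptor of the D2-like class, which lowers cyclic AMP. The Q7SST peak had a score of 19, at percentile 7.83 of its list, and ran over 539 bp (chromosome 7, 141291696 to 141292234), from 310 bp upstream into exon 1, where it covered untranslated and coding sequence. In the 5 mutant lists the nearest peak lay 25160 bp to 25293 bp from a start. This was the weakest of the 5 Q7SST marks.

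The other 4 dopamine receptor genes had no peak near a start in any list. For Drd1 (chromosome 13, 54051183 to 54055705), which with Drd5 forms the D1-like class that raises cyclic AMP, the nearest peak lay 15857 bp to 16423 bp away. For Drd5 (chromosome 5, 38319367 to 38322518) the distance was 11414 bp to 11473 bp. For Drd2 (chromosome 9, 49340627 to 49408177), the main receptor of indirect pathway neurons, it was 142501 bp to 144843 bp. For Drd3 (chromosome 16, 43754026 to 43822932), also D2-like, it was 32510 bp to 51519 bp. Over the 5 dopamine receptor genes and 6 lists, there was thus 1 mark in all, and each of the 5 mutant lists, vehicle included, held none.

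**Figure D2:**
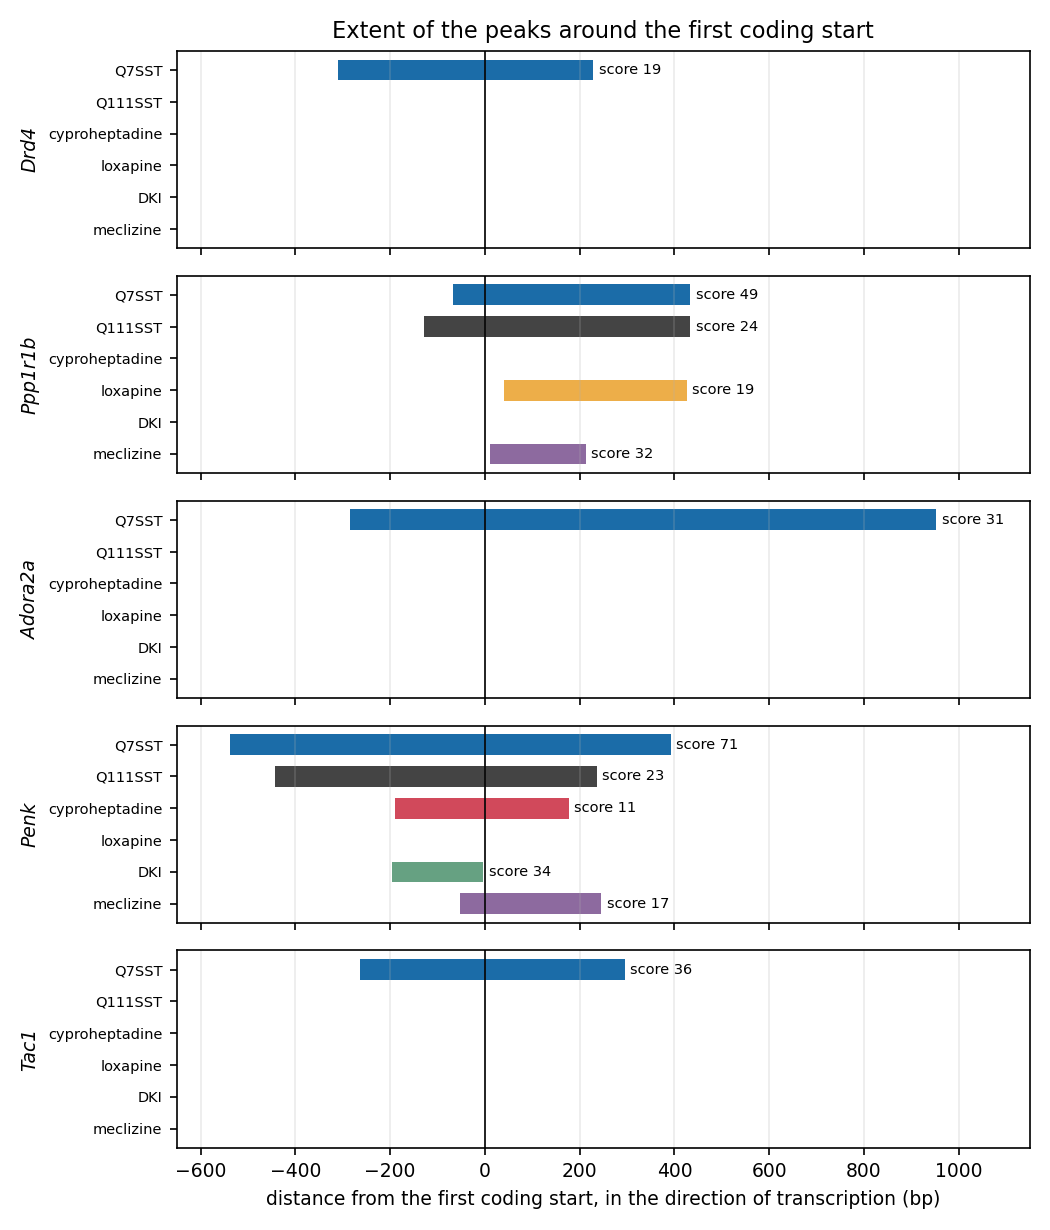
Peaks near the starts of the 5 marked genes. Each bar spans 1 peak of a list, with its score beside it, on a horizontal axis of distance in bp from the first coding start (0, vertical line), negative upstream. The Q7SST bar is present in all 5 panels, and the loxapine and meclizine bars at Ppp1r1b and the DKI bar at Penk do not reach the line.

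The marks at these genes were weak beside those of other promoters. Among the 13123 genes marked in Q7SST the median percentile was 80.4 and the median width of the strongest peak 1709 bp. Penk was stronger than 21.2% of those promoters, Ppp1r1b than 11.3%, Tac1 than 6.32%, Adora2a than 4.68% and Drd4 than 0.846%. Among the 12790 genes marked in Q111SST the median percentile was 82.6, and Ppp1r1b was stronger than 3.50% of them and Penk than 3.27%. With the compounds, the highest place was that of Penk with DKI, stronger than 8.51% of 12217 marked promoters. All 12 peaks were narrower than the median of their own list's marked promoters, which lay between 1461 bp with DKI and 1795 bp in Q111SST.

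The lists were then compared with Q111SST as the common reference. In Q7SST, 3 genes of the list were marked that Q111SST did not mark (Tac1, Adora2a and Drd4), against 3.6% of all genes, and none was lost, against 2.08%. Those 3 genes were also absent from all 4 compound lists. None of the 3 peaks reached a score of 47, the median over all lists, and with that limit the genes marked in Q7SST and not in Q111SST were Penk and Ppp1r1b. Over all genes, 2.78% were marked in Q7SST and in no other list. None of the 10 genes was marked in one of the mutant lists alone, a pattern shown by 0.219% of all genes for Q111SST, 0.292% for loxapine, 0.205% for meclizine, 0.128% for cyproheptadine and 0.073% for DKI. The 788 genes gained in Q7SST had a median percentile of 32.6 there, with quartiles at 18.6 and 52.5, so Tac1 and Adora2a lay between the quartiles and Drd4 below them. Q7SST held fewer peaks than Q111SST in all, 38392 against 40406.

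None of the 4 compounds added a mark at any of the 10 genes. Over all genes, 1.02% were gained with meclizine, 1.01% with loxapine, 0.306% with cyproheptadine and 0.269% with DKI. Cyproheptadine lost Ppp1r1b (1 of 10, against 3.33% of all genes) and DKI also lost Ppp1r1b (1 of 10, against 2.88%). Loxapine lost Penk (1 of 10, against 1.24%), and meclizine lost none, against 0.799%. These 4 comparisons share the Q111SST list. The compound lists ranged from 30758 peaks (DKI) to 45564 peaks (loxapine). With every list cut to its strongest 30758 peaks, the genes lost numbered 2 each for loxapine and cyproheptadine and 1 each for meclizine and DKI. With scores of at least 47, Q111SST marked none of the 10 genes and 0 could be lost, and with starts within 5 kb the losses with cyproheptadine and DKI were 0. For these settings the share of all genes lost was not computed, so the counts have no background beside them. In Q111SST the marks lost stood at percentile 24.2 for Penk and percentile 25.9 for Ppp1r1b of the whole list, and at percentile 0.751 and percentile 2.61 of its strongest 30758 peaks.

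Base composition, which the choice of genes did not use, was then examined. For each gene, CpG observed over expected is the number of CpG divided by the number that its C and G content would give, here over 300 bases (250 before and 50 after the first coding start). Drd2 had the highest value at 0.931, followed by Drd5 at 0.863, Penk at 0.858 and Tac1 at 0.719. Drd1 had 0.638, Drd4 0.602, Ppp1r1b 0.601, Adora2a 0.491, Pdyn 0.412 and Drd3 0.342. The 5 marked genes had a median of 0.602 and the 5 unmarked genes one of 0.638. Over all promoters, those of genes marked in at least 1 list had a median of 0.732 and those of genes marked in no list 0.190. Marked and unmarked genes of the list thus overlapped in CpG content. The order depended on the window: over 1000 bases centred on the start, the marked gene Penk was highest at 0.798, ahead of Drd2 at 0.773 and Drd5 at 0.749. The medians then stood the other way round, at 0.585 for the marked and 0.561 for the unmarked genes.

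A promoter was called CpG-rich at a ratio of at least 0.6 with at least 50% G and C. Of 21824 promoters with sequence, 9225 were CpG-rich, and of these 91.8% were marked in Q7SST and 6.86% in no list. Drd1, Drd2 and Drd5 were among the 633 CpG-rich promoters that no list marked. The other CpG-rich promoters of the list, those of Drd4, Ppp1r1b and Penk, were marked, the first of these in Q7SST alone, and the ratios of Drd4 and Ppp1r1b lay just above the limit. Among promoters that were not CpG-rich, 36.5% were marked in Q7SST, and of the 4 in this list Adora2a and Tac1 were marked while Drd3 and Pdyn were not. The Tac1 promoter met the ratio but had 47.3% G and C. Over the 1000 bases, Drd1, Drd4 and Ppp1r1b were no longer CpG-rich and Tac1 was.

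**Figure D3:**
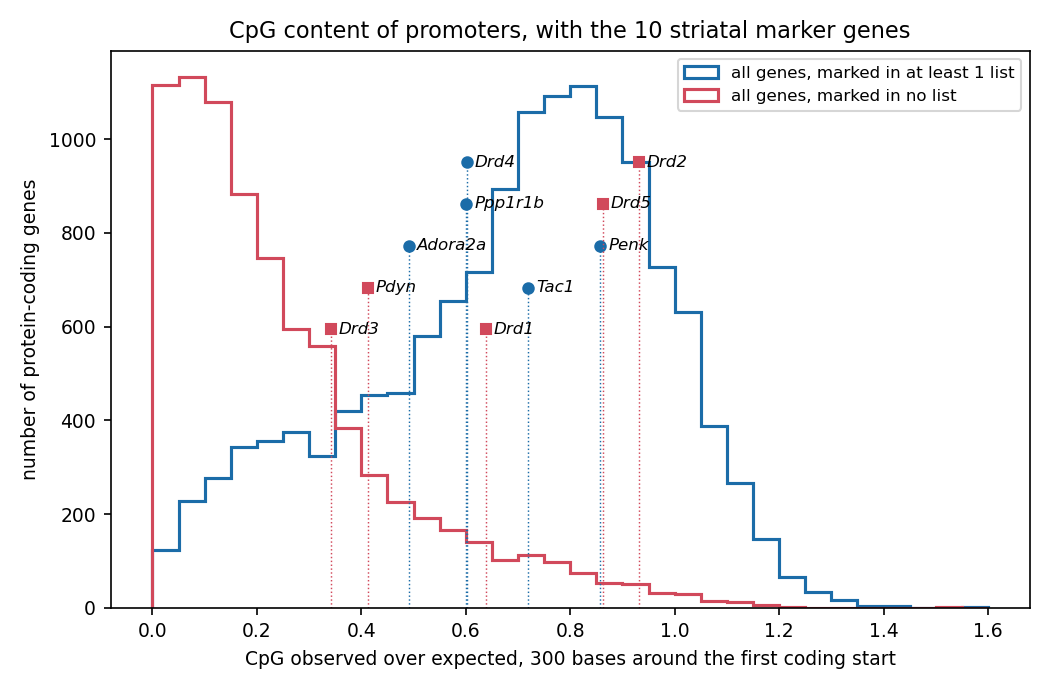
CpG observed over expected (horizontal axis) for all protein-coding promoters, as outlines of the number of genes marked in at least 1 list (blue) and in none (red), with the few ratios beyond the axis counted in the last bin. Points stand at the ratios of the 10 genes, circles for marked and squares for unmarked ones, and their heights carry no value. Drd2 at 0.931 and Drd5 at 0.863 stand among marked genes although no list marked them.

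Both strands of the same 300 bases were searched for 4 short motifs. TGCGTCA, a variant of the cyclic AMP response element, was found in 2 of the 10 promoters and in 2.52% of all promoters. In Tac1 it lay 17 to 11 bases before the start, on the strand of the gene. The full palindromic cyclic AMP element, TGACGTCA, was found in none of the 10 and in 2.46% of all promoters. The GC box GGGCGG was found in 4 of the 10, Adora2a, Drd4 and Drd5 among them, and in 43.8% of all promoters. The TATA core TATAAA was found in 2 of the 10 and in 12.6% of all promoters, and in Pdyn it lay 42 to 37 bases before the start. These matches are descriptions of the letters.

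Other genes of the same pathways were also examined. Over all genes, 59.9% were marked in Q7SST, 58.4% in Q111SST and 55.4% to 58.6% with the compounds. The share was 53.5% in all 6 lists and 37% in none, and no difference from these shares was tested. Of 18 genes that transmit dopamine signals inside the cell, such as Gnas, the stimulatory G protein, 17 were marked in Q7SST, 16 in Q111SST and 15 in all 6 lists. Gnal, the G protein that couples striatal dopamine receptors to adenylyl cyclase, was marked in Q7SST and with meclizine only, at percentile 43.4 and percentile 37.0. Of 8 genes of dopamine synthesis, transport and breakdown, 3 were marked in every list and the other 5 in none. Th and Ddc, the enzymes that make dopamine, and its transporter Slc6a3 were among the unmarked, and Gch1, which makes a cofactor of Th, was marked in all 6. Of 9 receptor genes for opioid peptides, tachykinins and adenosine, 3 were marked in Q7SST and 1 in Q111SST. Tacr1, the receptor for substance P, was marked in Q7SST alone, at percentile 46.4. Of the opioid receptor genes, Oprm1 was marked with DKI alone, at percentile 2.79, and Oprd1 and Oprk1 in no list. Of 6 genes that cut and process neuropeptides, the cyproheptadine list marked 2 and the other lists 4 each. Pcsk1 and Pcsk2, the prohormone convertases, stood at percentile 58.5 and percentile 62.5 in Q7SST, and at percentile 8.76 and percentile 22.4 in Q111SST, but Pcsk1 was at percentile 56.7 with meclizine and percentile 40.6 with loxapine. Cpe and Pam, which trim and amidate peptides, were marked in all 6 lists, Cpe at percentile 79.7 in Q7SST and percentile 71.5 in Q111SST, and Pam at percentile 97.7 and percentile 99.2.

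Of 14 further markers of striatal neurons, 5 were marked in Q7SST and 2 in Q111SST, and none in all 6 lists. Among the compounds, loxapine marked 4 of them, meclizine 2, cyproheptadine 1 and DKI 0. Of 29 other receptors for serotonin, acetylcholine, histamine and noradrenaline, 15 were marked in Q7SST, 9 in Q111SST, and between 7 and 11 with the compounds. Of 20 striatal lineage transcription factors, by contrast, 17 were marked in Q7SST, 14 in Q111SST and 12 in all 6 lists. These counts stand beside 59.9% of all genes in Q7SST and 58.4% in Q111SST. Marks in Q7SST and not in Q111SST, held by 3.6% of all genes, were also found outside the 10 genes. They lay at 3 of the 14 further markers, 6 of the 29 receptors and 4 of the 20 transcription factors. Of the pathway genes, 2 of the 9 peptide and adenosine receptors and 1 of the 18 signal genes held them. None of the 8 dopamine synthesis, transport and breakdown genes or the 6 processing genes did. No difference between gene lists was tested.

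Markers of progenitors and of other cell types were also counted. As most protein-coding genes were marked, such counts cannot test the label of the cells. Of 10 progenitor markers, 8 were marked in Q7SST and 7 in Q111SST, while loxapine and meclizine each marked 8, DKI 6 and cyproheptadine 5. Over all genes the shares were 59.9% and 58.4% in Q7SST and Q111SST and 55.4% to 58.6% with the compounds, and no difference from these shares was tested. Vim, an intermediate filament gene, was marked in all 6 lists, Nes in all but cyproheptadine, and Sox2 in all but Q7SST. Msi1 was marked in 3 lists, and of the 10 progenitor markers 4 were marked in all 6 lists and 1 in none. Of 10 glial markers, between 1 and 3 were marked per list, and Gfap, the astrocyte filament, in the 5 mutant lists and not in Q7SST. Of 6 markers of vessels and connective tissue, 3 were marked in Q7SST and 4 in each of the other lists, with the endothelial genes Pecam1 and Cdh5 in none. The other 4, which mark connective tissue and the cells around vessels, were marked in all 5 mutant lists, among them the collagen gene Col1a1 (percentile 70.9 to percentile 79.2 over the 6 lists), and Col1a2 was the one that Q7SST did not mark. Of 8 genes of other tissues, none was marked in any list. The lines thus also differed at markers other than those of mature neurons, and the part of such differences in the Q7SST marks was not tested.

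**Figure D4:**
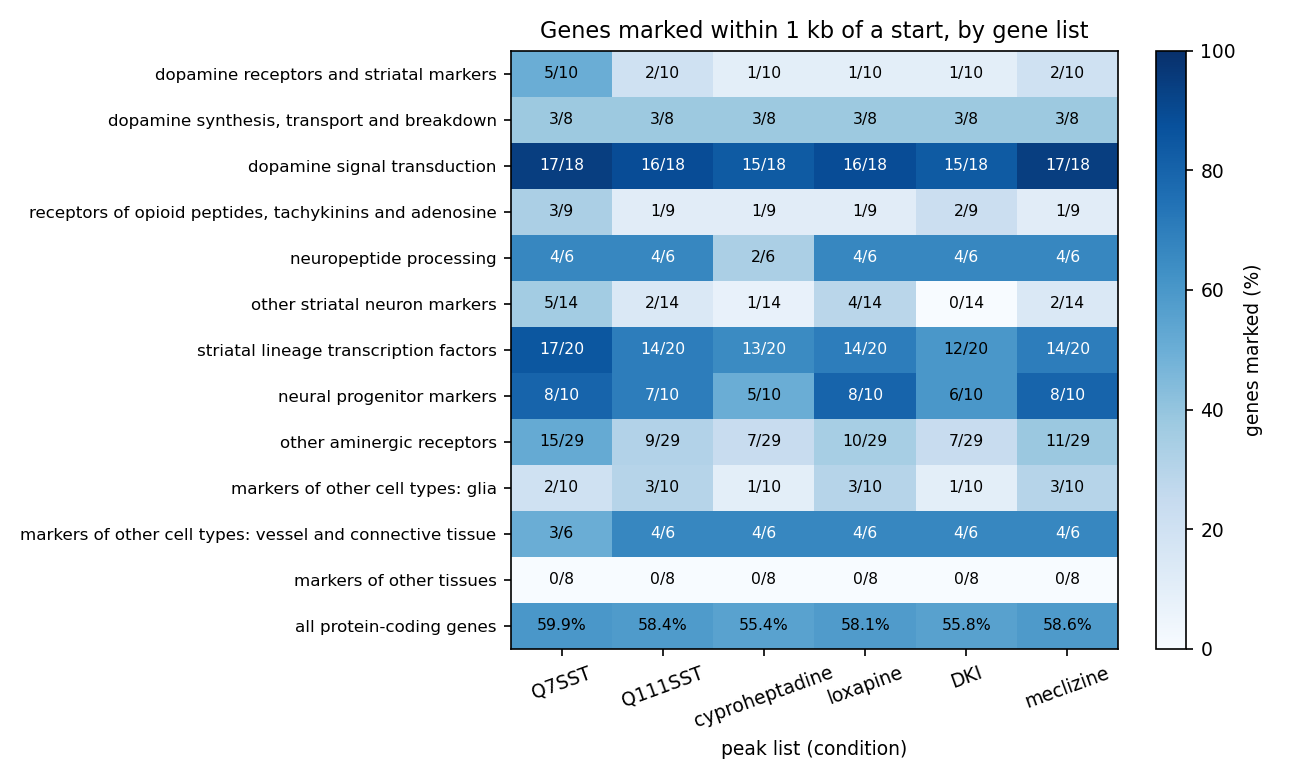
Genes marked within 1 kb of a start, for each gene list (rows) in each peak list (columns). Cells give marked genes over genes in the annotation, with the percentage of all protein-coding genes in the last row, and darker blue is a higher percentage. The 10 genes range from 1 to 5 of 10, and the genes of dopamine signal transduction from 15 to 17 of 18.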

How the data were processed

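H3K4me3 ChIP-Seq peak lists were analysed, 1 for each of 6 conditions. Per the labels, the submitters' processing notes name Trimmomatic 0.36, Bowtie2, SAMtools 1.3, MACS2 and build mm10, and the files hold intervals with a whole-number score deposited by the authors, whose scale, threshold, input control and pooling of replicates are not given in the sources used here. The lowest score was 10 in every list. Depth is unknown, and a gene without a peak is one below the caller's threshold, which differs from a gene without the mark.

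Groups were taken from the sample titles. Starts of all transcripts came from GENCODE mouse release M21 (GRCm38, the assembly of mm10), and no peak on the 21 chromosomes ran past a chromosome end. Protein-coding genes outside the mitochondrial genome were counted by symbol, each with its highest-scoring peak within 1 kb. The assignment was tested on simulated data. Promoters were read from the RefSeq copy of GRCm38.p6, and the promoter letters of Penk and Drd2 are not reported here. All 10 genes are named, with up to 4 genes of each of 11 further lists in list order, the 2 protein-coding genes most alike to each marked gene, and genes with a start within 1 kb of its peak. The genes and lists were chosen with earlier results of these data known. Alternatives were windows of 0 and 5 kb, scores of at least 47 (the pooled median), lists of equal size (30758 peaks), coding transcripts only, peaks within 1 kb merged, a 50% reciprocal overlap, and 500 bases each side of the start for CpG. The versions were matplotlib 3.10.9, pandas 2.3.3 and numpy 2.4.6 under Python 3.11.15.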

Additional observations from a re-analysis of the deposited data

How the results depend on the processing

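No paired analysis was possible because the labels give 1 sample in every group. With scores of at least 47, Q7SST kept 2 of the 10 genes (Penk and Ppp1r1b) and Q111SST and each of the 4 compound lists had 0, so that 2 genes were marked in at least 1 list and cyproheptadine, loxapine and DKI lost 0 against Q111SST. With lists of equal size, Q7SST marked 4 genes (without Drd4), cyproheptadine and loxapine marked 0 genes and meclizine 1, and 2 genes were lost with cyproheptadine, 2 with loxapine and 1 with meclizine. When the peak had to cover a start, loxapine and DKI marked 0 genes and meclizine 1, and 2 were lost with loxapine, 2 with DKI and 1 with meclizine. With a start within 5 kb, cyproheptadine and DKI marked 2 genes and lost 0, and 1 gene (Ppp1r1b, by the peak at Stard3) was marked in all 6 lists. Counts were unchanged with coding transcripts only and with peaks merged. Over all genes, the share marked per list was 46.6% to 53.6% at the score limit and 54.8% to 58.1% at equal size. It was 45.4% to 53.0% with the start covered and 60.2% to 64.8% with starts within 5 kb. The share of all genes lost was taken at the main setting only. Of the 3 genes marked in Q7SST and not in Q111SST, none passed a score of 47, where the 2 genes so marked were Penk and Ppp1r1b instead, and at equal size Tac1 and Adora2a remained. At equal size the percentiles in Q7SST were 54.5 for Penk, 36.5 for Ppp1r1b, 19.2 for Tac1 and 10.5 for Adora2a, and with meclizine Ppp1r1b stood at 10.9. With a reciprocal overlap of 50%, the DKI and meclizine peaks at these genes no longer counted as shared with Q111SST. What caused the other changes was not tested, except that a higher score limit and shorter lists remove peaks by construction. The unknown depth limits what a missing peak can show.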

Other observations

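Within the bodies of the 10 genes, apart from the peak at Stard3, 1 peak lay more than 1 kb from a start of the gene, in an intron of Drd3 in Q7SST (chromosome 16, 43801676 to 43802227, 39455 bp from a start), with a score of 68 at percentile 61.9. This was close to the strongest mark at a start, that of Penk in the same list. The 5 mutant lists had no peak within Drd3.

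The nearest peak to Drd5 lay upstream of it in all 6 lists at nearly the same place (chromosome 5, 38307667 to 38307953 in Q7SST), more than 1 kb from the start of any annotated gene. Its score was 181 in Q7SST and 65 in Q111SST, and among the compounds 88 for meclizine, 74 for loxapine, 61 for DKI and 47 for cyproheptadine. It was at percentile 95.9 in Q7SST and between percentile 56.0 and percentile 69.0 in the others. Near Tac1, a weak peak lay downstream of the gene with cyproheptadine (chromosome 6, 7578111 to 7578520, score 13) and loxapine (7577974 to 7578376, score 16), and in these lists it was the nearest peak.

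The genes whose 6 percentiles were most like those of Penk were Cyp26a1 and Cadm1, with mean absolute differences of 6.07 and 7.85 percentile points over the 6 lists. For Ppp1r1b they were Dnajc22 and Cspg5, with 2.29 and 2.74 points. For the 3 genes marked in Q7SST alone, other genes tied at a difference of 0, namely 23 for Drd4, 12 for Adora2a and 14 for Tac1. The first in alphabetical order were Ache and Adgrf2, Cldn20 and Cyp27b1, and 1700014D04Rik and Cdh10.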
